A study of Drosophila melanogaster with 12 samples.

Results

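Engulfment genes of the Drosophila brain were read in RNA sequencing libraries of sorted optic lobe cells. The set holds 9 genes chosen by their known role: the receptors drpr, crq and NimC4, the adaptors ced-6 and Crk, the exchange factor subunits mbc and Ced-12, and the GTPases Rac1 and Rac2. All 9 were found by name among the 16272 genes of the deposited table, and all 9 passed the filter on low counts that left 10528 genes for testing. The study sorted T4 and Pm2 neurons, each a single cell type of the fly visual system, and used neurons and glia at large as controls. Each population had 3 libraries, 12 in all, from Canton-S adults aged 3 days. Cells of each population expressed the nuclear reporter UAS-Red Stinger under a Gal4 driver. T4 and Pm2 had drivers of their own, while the neurons at large carry the name of the Elav driver and the glia that of Repo. The driver therefore sets which cells a population holds, and populations cannot be told apart from driver lines. The labels name no injury or other treatment for any group. The labels do not say whether libraries came from separate animals or sorts, so p-values measure the spread between libraries.

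Engulfing glia in flies recognise dying cells and degenerating axons through Draper, the product of drpr, a transmembrane receptor related to mammalian MEGF10. Draper signals through the phosphotyrosine-binding adaptor Ced-6 and through the kinases Src42A and Shark. A complex of Crk, Mbc (the fly DOCK180) and Ced-12 (the fly ELMO) loads Rac GTPases with GTP, which drives the actin rearrangement that closes the phagosome. Croquemort, from crq, is a scavenger receptor of the CD36 family known from embryonic macrophages. NimC4 encodes the Nimrod-family receptor SIMU, which acts upstream of Draper in embryonic glia and macrophages.

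Library totals ran from 35012892 to 57811629 counts, and the number of genes detected per library from 9706 to 12742. Levels are given in CPM, counts per 1000000 of the scaled total of tested genes, as mean ± SD with n = 3. A floor of 3 counts over the libraries of a population corresponds to 0.0186 CPM in Pm2 and to 0.0239 CPM in neurons, and floors and ratio intervals cover counting error only. The labelled cell types held their defining markers. The glial factor repo was at 3427 ± 410 CPM in glia, 0.845 ± 0.350 in neurons, 0.327 ± 0.433 in T4 and at 0 counts in Pm2. The neuronal gene elav stood at 138 ± 24 CPM in glia against 641 ± 8 in neurons, so glia held 21.5% of its neuronal level. The synaptic gene nSyb stood at 45.8 ± 4.3 CPM in glia against 2997 ± 85 in neurons, and the GABA synthesis gene Gad1 at 12450 ± 745 in Pm2. The 4 T4 transcription factors summed to 3130 to 3442 CPM in T4 and to 293 to 300.0 in Pm2. Nearly all of the Pm2 sum was TfAP-2, at 294 ± 4 CPM against 422 ± 18 in T4. That difference was not called (T4 minus Pm2, log2 0.52 ± 0.33; edgeR adjusted p = 0.244). Glia replicate 2 and neurons replicate 2 stood somewhat apart from their groups, the first in its level of mbc and the second in having the most genes with a count. Without either of them, 8 of the 9 genes were on the same side of the threshold in every comparison of glia, NimC4 against neurons being the exception.

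Glia held more transcript than each neuron population for drpr, crq, ced-6, mbc, Rac1 and Rac2, and less for Crk and NimC4. Ced-12 passed no test under the main settings, but did under some alternatives. The differences fell into clear size classes. The adaptor ced-6, the exchange factor mbc and the GTPase Rac2 were 34.2-fold or more above every neuron population, whereas drpr, crq and Rac1 were 1.71-fold to 3.36-fold higher. Against neurons 8 of the 9 genes were called at an edgeR adjusted p below 0.05, 6 higher and 2 lower in glia. Of all genes tested, 68.7% were called in that comparison, 30.9% higher and 37.8% lower. Against T4 the same test called 8 genes, 6 higher and 2 lower, beside 67.8% of all genes, 32.2% higher and 35.6% lower. Against Pm2 it called 8 genes, again 6 higher and 2 lower, beside 66.0% of all genes, 32.2% higher and 33.8% lower. Under scaling by library total, 2674 of all genes were called higher and 4657 lower against neurons, 2767 and 4577 against T4, and 2944 and 4035 against Pm2, beside the same 6 and 2 engulfment genes in each. Most genes differed between glia and neurons, so a count of 8 in 9 is not far from the background. The 3 comparisons share the glia libraries. In each of them 8 of the 9 genes had every glia library outside the range of the other 3 libraries. The share of all genes with such separation was not computed, so nothing is read from that count. In these sorted bulk samples fewer cells of a type and less RNA per cell cannot be told apart.

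**Figure D1:**
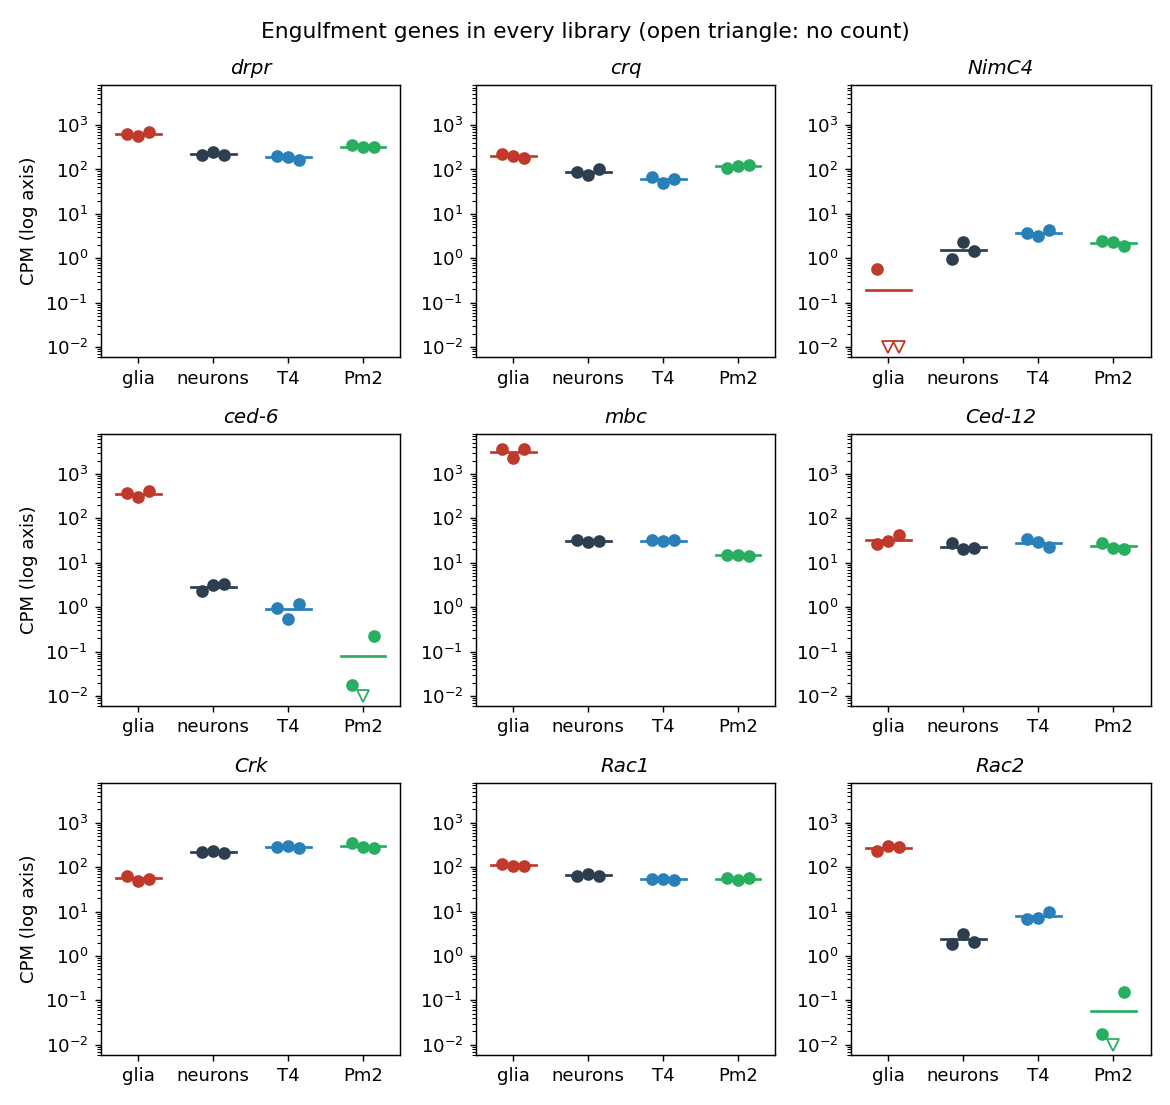
Scaled level (CPM, log axis) of the 9 engulfment genes in each of the 12 libraries, with 3 points per population and a bar at the mean; open triangles mark libraries with no count. The glia points lie above all others for drpr, crq, ced-6, mbc, Rac1 and Rac2, below all others for Crk and NimC4, and among the others for Ced-12.

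The Draper receptor gene drpr lies on 3L from 1715595 to 1731107 on the minus strand (FBgn0027594, BDGP6). Its level was 620, 568 and 691 CPM in the glia libraries and 213, 246 and 217 CPM in the neuron libraries. T4 libraries held 203, 192 and 167 CPM and Pm2 libraries 347, 316 and 315 CPM. No pair of populations overlapped, and the order was glia, Pm2, neurons, T4. The mean was 626 ± 62 CPM in glia against 225 ± 18 in neurons, a 2.78-fold difference (log2 1.47 ± 0.12 SE; edgeR adjusted p = 5.41e-07). Against Pm2 the difference narrowed to 1.92-fold (log2 0.94 ± 0.11; edgeR adjusted p = 2.11e-05), and against T4 it was 3.35-fold (log2 1.74 ± 0.12; edgeR adjusted p = 1.44e-07). The neuron populations also differed among themselves, since Pm2 exceeded neurons by 0.53 ± 0.11 on the log2 scale (edgeR adjusted p = 0.00376) and T4 lay below Pm2 by 0.80 (log2 -0.80 ± 0.11; edgeR adjusted p = 0.000244). T4 and neurons differed by log2 -0.27 ± 0.11, which was not called (edgeR adjusted p = 0.113). Per kilobase of exon drpr stood at 132 ± 13 CPM in glia and 39.3 ± 3.9 in T4, so the receptor transcript was present in every population sorted. It shares 115 exon bases, 2.42% of its exon length, with Oseg4 on the same strand, which averaged at most 1.41 CPM in any population.

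The scavenger receptor gene crq lies on 2L from 448254 to 453024 on the minus strand (FBgn0015924). Glia libraries held 222, 200 and 181 CPM, neuron libraries 88.6, 75.4 and 104 CPM, T4 libraries 67.0, 50.4 and 62.1 CPM, and Pm2 libraries 106, 122 and 125 CPM. The order was that of drpr, glia then Pm2, neurons and T4, with no overlap between neighbours. Glia exceeded neurons 2.25-fold (log2 1.17 ± 0.15; edgeR adjusted p = 3.38e-05), T4 3.36-fold (log2 1.75 ± 0.15; edgeR adjusted p = 1.41e-06) and Pm2 1.71-fold (log2 0.77 ± 0.15; edgeR adjusted p = 0.000833). T4 was lower than Pm2 (log2 -0.98 ± 0.15; edgeR adjusted p = 0.000438). T4 was also called below neurons (log2 -0.58 ± 0.15; edgeR adjusted p = 0.0180), but not without T4 replicate 2 (0.0727) or without neurons replicate 3 (0.0768). Pm2 against neurons gave log2 0.40 ± 0.15 and missed the threshold (edgeR adjusted p = 0.0579), and passed it without neurons replicate 3 (0.0336). Of its exon length, 448 bases or 15.7% overlap ex on the opposite strand, and ex averaged at most 1.29 CPM, far below crq.

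NimC4 had the lowest level of the receptors per kilobase of exon in every population and was nearly undetected in glia. It lies on 2L from 14047582 to 14048863 on the plus strand (FBgn0260011), within an intron of the acetylcholine receptor subunit gene nAChRalpha5 (2L, 14040170 to 14094401, same strand), with no exon base shared. The glia libraries held 23, 0 and 0 counts of NimC4, against 36, 111 and 58 in neurons, 202, 156 and 218 in T4 and 141, 120 and 101 in Pm2. In CPM this was 0.190 ± 0.328 in glia, 1.58 ± 0.72 in neurons, 3.73 ± 0.56 in T4 and 2.24 ± 0.30 in Pm2. T4 lay above the other populations without overlap, and Pm2 and neurons overlapped. Glia were called lower than neurons (log2 -3.07 ± 1.24; edgeR adjusted p = 0.0455), T4 (log2 -4.31 ± 1.30; edgeR adjusted p = 0.0119) and Pm2 (log2 -3.57 ± 1.26; edgeR adjusted p = 0.0267).

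All 23 glial counts of NimC4 came from glia replicate 1. Over the 3 libraries neurons exceeded glia 9.64-fold, with a 95% counting interval of 6.25 to 15.6. Without glia replicate 1 the remaining glia libraries held no count, and neurons were at least 51.9-fold higher, T4 at least 119-fold and Pm2 at least 71.4-fold, taking 3 counts over those libraries as the floor. The call against neurons was lost without any of the 3 neuron libraries (adjusted p = 0.0550, 0.111 and 0.0721) and without glia replicate 2 (0.0627) or 3 (0.0721). That against Pm2 was lost without Pm2 replicate 1 (0.0528). The host gene nAChRalpha5 was also lowest in glia and highest in T4, at 8.98 ± 5.22 CPM in glia, 642 ± 21 in neurons, 776 ± 56 in T4 and 550 ± 68 in Pm2. In neurons the mean of nAChRalpha5 was higher than in Pm2 and that of NimC4 lower, but libraries overlapped for both genes. Neither of these differences was called (edgeR adjusted p = 0.596 and 0.766). The excess of nAChRalpha5 in T4 was not called over neurons (edgeR adjusted p = 0.560) or over Pm2 (0.217). NimC4 counts came to 0.411% to 0.519% of nAChRalpha5 counts in T4 libraries, 0.379% to 0.444% in Pm2 and 0.153% to 0.357% in neurons. In glia they came to 7.90% in replicate 1, which had all the NimC4 counts and 7.19 CPM of nAChRalpha5, and to 0% in replicates 2 and 3, at 4.89 and 14.9 CPM of nAChRalpha5. The part of reads from the host intron in the NimC4 counts was not tested.

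The adaptor gene ced-6 was high in glia and near the floor in Pm2. It lies on 2R from 9434669 to 9444937 on the minus strand (FBgn0029092). The glia libraries held 370, 307 and 404 CPM and the neuron libraries 2.32, 3.12 and 3.29 CPM. T4 libraries held 0.945, 0.554 and 1.17 CPM, and the Pm2 libraries held 1, 0 and 12 counts in all. Every population was separate from the next, in the order glia, neurons, T4, Pm2. Glia stood at 361 ± 49 CPM, 124-fold above neurons at 2.91 ± 0.52 (log2 6.95 ± 0.47; edgeR adjusted p = 1.74e-07) and 406-fold above T4 at 0.888 ± 0.310 (log2 8.66 ± 0.52; edgeR adjusted p = 5.80e-08). The ratio to Pm2 was 4441-fold with a counting interval of 2597 to 8340 (log2 12.08 ± 0.63; edgeR adjusted p = 2.12e-08), and 12 of the 13 Pm2 counts came from replicate 3. Without that library the ratio was 38800-fold, with an interval of 6963 to 1533000, from a single count.

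Among the neuron populations ced-6 was low and differed, with 369 counts over the libraries of neurons, 138 in T4 and 13 in Pm2. T4 was called lower than neurons (log2 -1.71 ± 0.43; edgeR adjusted p = 0.0150), a call lost without T4 replicate 2 (0.0645) or neurons replicate 3 (0.0517). Pm2 was lower than neurons (log2 -5.13 ± 0.59; edgeR adjusted p = 5.82e-05), and T4 was higher than Pm2 (log2 3.42 ± 0.64; edgeR adjusted p = 0.00154). Without Pm2 replicate 3 these differences became -7.95 and 6.24.

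The exchange factor gene mbc had the highest level of the 9 genes in glia per kilobase of exon, at 426 ± 105 CPM. It lies on 3R from 23781765 to 23801634 on the plus strand (FBgn0015513). Glia libraries held 3627, 2281 and 3639 CPM, neuron libraries 32.4, 28.7 and 30.4, T4 libraries 32.2, 30.4 and 32.1, and Pm2 libraries 14.7, 14.9 and 14.5 CPM. Glia replicate 2 was lower than the other glia libraries but far above every neuronal library. Glia stood at 3182 ± 781 CPM, 104-fold above neurons at 30.5 ± 1.9 (log2 6.71 ± 0.20; edgeR adjusted p = 3.12e-10), and the log2 difference was 6.89 without glia replicate 2. The ratio was 101-fold to T4 (log2 6.65 ± 0.20; edgeR adjusted p = 2.81e-10) and 217-fold to Pm2 (log2 7.76 ± 0.21; edgeR adjusted p = 1.73e-10). Pm2 at 14.7 ± 0.2 CPM was lower than neurons (log2 -1.05 ± 0.16; edgeR adjusted p = 0.000370) and than T4, which exceeded it by log2 1.10 ± 0.16 (edgeR adjusted p = 0.000244). T4 at 31.6 ± 1.0 CPM overlapped neurons (log2 0.05 ± 0.15; edgeR adjusted p = 0.865).

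Ced-12, which encodes the partner of Mbc in the exchange factor, did not follow mbc. The gene lies on 2L from 12097838 to 12100839 on the plus strand (FBgn0032409). Glia libraries held 26.5, 30.5 and 42.9 CPM, neuron libraries 27.5, 20.2 and 21.6, T4 libraries 33.5, 29.0 and 22.1, and Pm2 libraries 28.2, 21.03 and 20.5 CPM. All 4 populations overlapped in the order of their means. Glia against neurons gave log2 0.53 ± 0.23 (edgeR adjusted p = 0.0606), against Pm2 0.52 ± 0.23 (edgeR adjusted p = 0.0658) and against T4 0.24 ± 0.23 (edgeR adjusted p = 0.369). Without glia replicate 1, the first 2 were called (0.0288 and 0.0318), as was the first without neurons replicate 1 (0.0417) and the second without Pm2 replicate 1 (0.0392). Both were also called in DESeq2 (DESeq2 adjusted p = 0.0155 for each). In edgeR both were called under median-of-ratios scaling (adjusted p = 0.0236 and 0.0240) and with a filter at 100 counts (0.0354 and 0.0367). The call of Ced-12 thus depended on the method. Under scaling by library total neither was called, and the difference from T4 changed sign. Its exons share 75 bases, 2.9% of their length, with Patsas on the opposite strand, which stood at 5.39 ± 3.73 CPM in glia against 86.9 ± 17.3 in neurons. Whether Patsas reads entered the Ced-12 counts was not tested.

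The balance of mbc and Ced-12 within a library therefore differed by population. Per kilobase of exon, mbc stood at 34.2 ± 11.5 times Ced-12 in glia (25.9 to 47.4 over the libraries). The ratio was 0.462 ± 0.047 in neurons, 0.400 ± 0.091 in T4 and 0.224 ± 0.037 in Pm2. Glia libraries all held more mbc than Ced-12 transcript per length, and all neuronal libraries held less.

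The adaptor gene Crk was lower in glia. It lies on chromosome 4 from 210224 to 213165 on the plus strand (FBgn0024811). Glia libraries held 64.3, 48.4 and 53.9 CPM, neuron libraries 218, 236 and 211, T4 libraries 290, 292 and 267, and Pm2 libraries 354, 283 and 266 CPM. The glia libraries lay below all others, and T4 and Pm2 overlapped. Neurons exceeded glia 3.99-fold (glia minus neurons, log2 -2.0 ± 0.14; edgeR adjusted p = 2.26e-07), T4 5.10-fold (log2 -2.35 ± 0.14; edgeR adjusted p = 6.59e-08) and Pm2 5.42-fold (log2 -2.44 ± 0.14; edgeR adjusted p = 5.35e-08). Glia held Crk at 25.1% of its level in neurons, above all 10 pan-neuronal markers, which stood at 0.949% to 21.5% of their level in neurons with a median of 1.37%. Pm2 was called above neurons (log2 0.44 ± 0.14; edgeR adjusted p = 0.0252), and this call was lost without Pm2 replicate 1 (0.109), neurons replicate 1 (0.0662) or neurons replicate 3 (0.0848). T4 against neurons gave log2 0.35 ± 0.14 (edgeR adjusted p = 0.0835). Per kilobase, Crk stood at 0.0986 ± 0.0176 times mbc in glia and at 40.1 ± 4.5 times mbc in neurons.

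**Figure D2:**
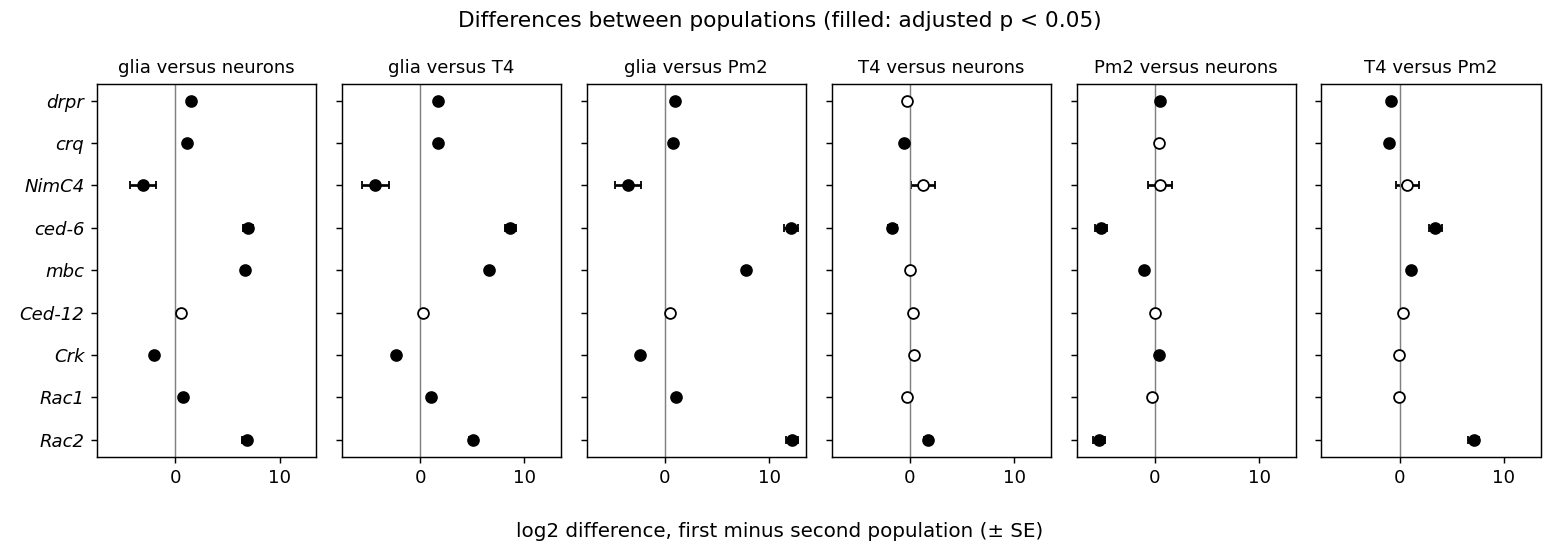
Log2 difference ± SE of each engulfment gene in the 6 comparisons, first minus second population, with filled points for an edgeR adjusted p below 0.05. In the 3 glia panels ced-6, mbc and Rac2 lie farthest to the right and Crk and NimC4 to the left, and in the panels of Pm2 against neurons and of T4 against Pm2 the points of ced-6 and Rac2 rest on 13 and 9 Pm2 counts.

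The Rac GTPases divided by population. Rac1 lies on 3L from 1300879 to 1302683 and Rac2 on 3L from 7432762 to 7435190, both on the minus strand (FBgn0010333 and FBgn0014011). Rac1 stood at 120, 107 and 108 CPM in glia libraries, 62.9, 70.0 and 63.0 in neurons, 54.0, 53.7 and 51.2 in T4 and 57.9, 50.5 and 55.8 in Pm2. Every glia library lay above every neuronal one. The differences were 1.71-fold from neurons (log2 0.78 ± 0.10; edgeR adjusted p = 4.08e-05), 2.11-fold from T4 (log2 1.08 ± 0.10; edgeR adjusted p = 2.85e-06) and 2.04-fold from Pm2 (log2 1.03 ± 0.10; edgeR adjusted p = 4.36e-06). Among the neuron populations Rac1 gave no call, with log2 differences of -0.30, -0.25 and -0.05 and edgeR adjusted p = 0.0542, 0.0744 and 0.774 for T4 against neurons, Pm2 against neurons and T4 against Pm2.

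Rac2 stood at 235, 293 and 288 CPM in glia libraries and at 1.90, 3.18 and 2.02 in neurons. T4 libraries held 6.74, 7.20 and 9.95 CPM, and Pm2 libraries held 1, 0 and 8 counts in all. No populations overlapped, in the order glia, T4, neurons, Pm2. Glia exceeded neurons 115-fold (log2 6.84 ± 0.42; edgeR adjusted p = 6.90e-08) and T4 34.2-fold (log2 5.10 ± 0.38; edgeR adjusted p = 3.54e-07). The ratio to Pm2 was 4923-fold with a counting interval of 2593 to 10770 (log2 12.19 ± 0.56; edgeR adjusted p = 8.50e-09). Without Pm2 replicate 3, which gave 8 of the 9 Pm2 counts, the ratio was 29780-fold with an interval of 5345 to 1176000. T4 held more Rac2 than neurons (log2 1.74 ± 0.35; edgeR adjusted p = 0.00472) and than Pm2 (log2 7.09 ± 0.53; edgeR adjusted p = 1.64e-06), and Pm2 held less than neurons (log2 -5.35 ± 0.55; edgeR adjusted p = 2.43e-05). Without Pm2 replicate 3 the last 2 values became 9.40 and -7.65.

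The share of Rac1 in the sum of Rac1 and Rac2 counts was 33.8%, 26.9% and 27.2% in the glia libraries. It was 95.7% to 97.1% in neurons, 83.7% to 88.9% in T4 and 99.7% to 100.0% in Pm2. Corrected for exon length, Rac1 made up 35.8 ± 4.3% in glia, 97.4 ± 0.6% in neurons, 89.9 ± 2.2% in T4 and 99.9 ± 0.1% in Pm2. The 2 genes summed to 174 ± 9 CPM per kilobase in glia, 37.2 ± 2.6 in neurons, 32.6 ± 0.1 in T4 and 30.3 ± 2.1 in Pm2. The genes are near-identical paralogs over their coding parts, and how the authors' counting treated reads that match both is not given in the sources used here, so the shares are uncertain to that extent.

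**Figure D3:**
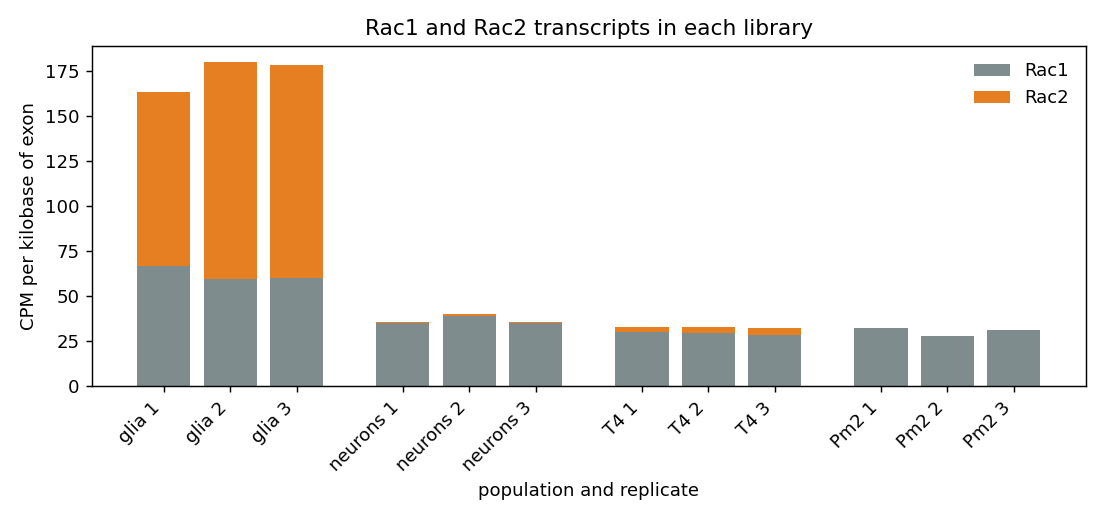
Stacked CPM per kilobase of exon of Rac1 and Rac2 in each of the 12 libraries. Rac2 makes up the larger part of the bar in the 3 glia libraries and a small or invisible part in the 9 neuronal libraries, while the Rac1 part is between 28.0 and 66.6 CPM per kilobase throughout.

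The 3 genes with the largest glial excess were low in neuron populations to a degree also seen for glial markers. As a percentage of their glial mean, ced-6 stood at 0.807%, mbc at 0.958% and Rac2 at 0.869% in neurons. The 21 glial markers with a count in glia stood at 0.0247% to 100.3% there, with a median of 0.545%, and all but the transporter gene Eaat2 were at or below 6.26%. In T4 the percentages were 0.246% for ced-6, 0.992% for mbc and 2.93% for Rac2, beside a median of 0.105% and a highest value other than Eaat2 of 1.75% for the markers. In Pm2 they were 0.0226%, 0.462% and 0.0207%, beside a median of 0.0514% and a highest value other than Eaat2 of 4.97%. The level of Rac2 in T4 thus lay above 20 of the 21 markers, and the other values lay within the range of the markers. The part of glial RNA in the neuronal values of ced-6, mbc and Rac2 was not tested. The remaining genes were at 29.8% or more of their glial level in every neuron population.

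**Figure D4:**
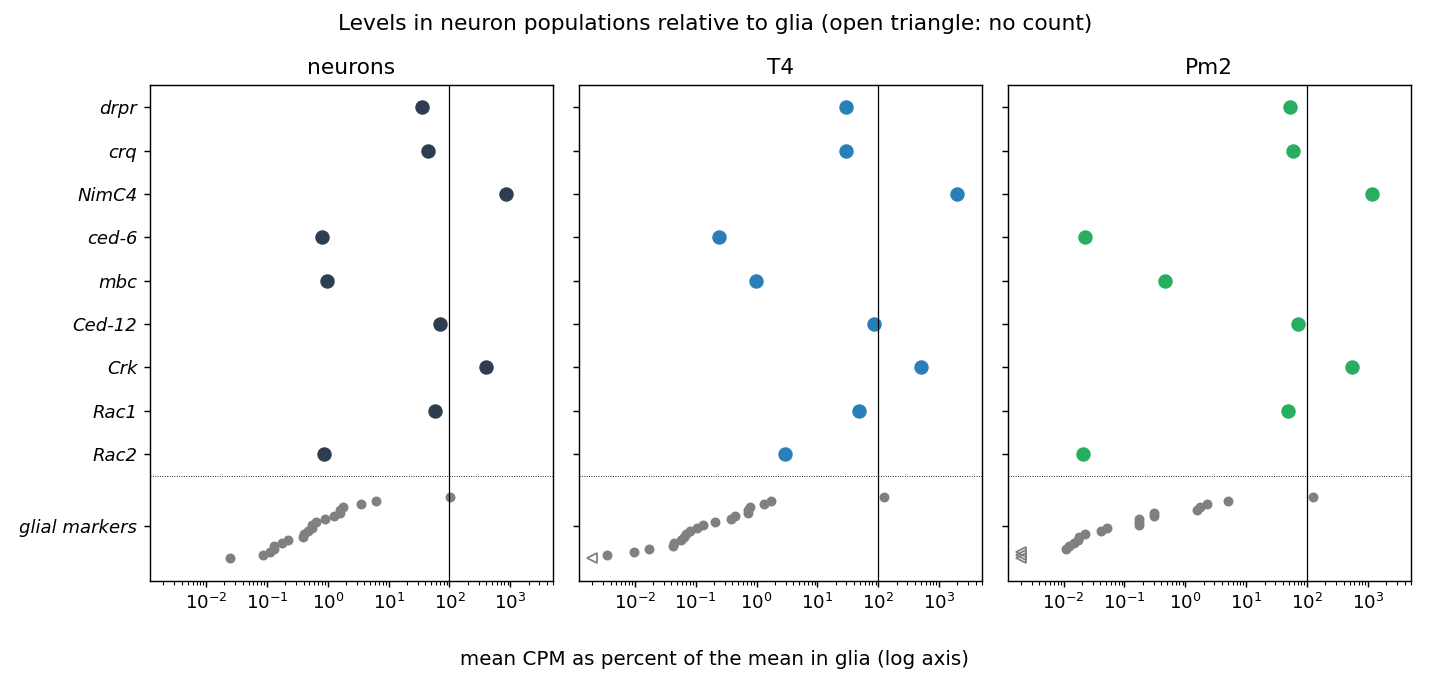
Mean CPM in neurons, T4 and Pm2 as a percentage of the mean in glia (log axis) for the 9 engulfment genes (coloured) and for 21 glial markers (grey, ordered by value), with a line at 100%. ced-6, mbc and Rac2 lie among the grey markers except for Rac2 in T4 at 2.93%, and Crk and NimC4 lie to the right of the line.

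Macrophages of the fly, the haemocytes, also use this pathway, and their markers were read in the same libraries. Of 13 haemocyte markers, 4 were higher and 3 lower in glia than in neurons among the 8 tested. Of all genes 68.7% were called, 30.9% higher and 37.8% lower. Among the 8, 1 passed the filter only with the glia libraries, and PPO1, with no count in glia, only with the neuron libraries. Nothing is therefore read from these marker counts. Their sum was 1609 to 3591 CPM in glia, 148 to 173 in neurons, 21.8 to 23.1 in T4 and 22.7 to 28.6 in Pm2. The glial sum came mostly from the collagen IV genes Cg25C (now Col4a1), at 1370 ± 478 CPM, and vkg, at 1347 ± 548. The mean of ush was also higher in glia, at 13.49 ± 5.685 CPM against 2.733 ± 1.067 in neurons. So was that of PPO3, at 11.75 ± 2.419 CPM in glia against 1.174 ± 0.6824 in neurons. The sum in neurons came mostly from Pxn, at 113 ± 10 CPM against 2.69 ± 2.73 in glia, and PPO2, at 40.6 ± 3.1 against 1.82 ± 1.58. The markers eater and He had no count in any library, srp averaged at most 0.0699 CPM, and Hml averaged 0.617 ± 0.986 CPM in glia. NimC1 was uneven, at 4.97 ± 6.96 CPM in glia with a range from 0 to 12.9. In glia 3 of the 13 markers had no count.

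The glia libraries held markers of several glial classes, so the level of a gene in each class was not measured. Astrocyte and ensheathing markers summed to 17750 to 19030 CPM in the glia libraries, cortex glia markers to 2366 to 2644, and surface glia markers to 1689 to 2569. The last sum includes vkg, which is also among the haemocyte markers, and was 809 to 998 CPM without it. The surface marker Mdr65 had no count in glia. The 9 engulfment genes themselves summed to 3834 to 5408 CPM in glia, 648 to 686 in neurons, 617 to 691 in T4 and 798 to 911 in Pm2.

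T4 and Pm2 were each compared with neurons at large and with each other. T4 against neurons called 3 of the 9 genes, Rac2 higher and ced-6 and crq lower, beside 23.2% of all genes, 8.67% higher and 14.5% lower. That count was 1 without T4 replicate 2 and without neurons replicate 3. Pm2 against neurons called 5 genes, drpr and Crk higher and ced-6, mbc and Rac2 lower, beside 35.6% of all genes, 15.5% higher and 20.1% lower. These comparisons share the neuron libraries. T4 against Pm2 called 5 genes, ced-6, mbc and Rac2 higher in T4 and drpr and crq lower, beside 36.4% of all genes, 18.0% higher and 18.4% lower. Over all genes the latter split was 1896 higher and 1940 lower, and 2399 higher and 1528 lower under scaling by library total. Libraries of the compared populations did not overlap for 7, 7 and 6 of the 9 genes in these comparisons, more genes than were called. The share of all genes without overlap was not computed, so nothing is read from these numbers.

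The wider pathway was read in 3 lists, whose genes were named by function. Of 28 other receptors, bridging factors and cues, 14 passed the filter, 6 of them only through the glia libraries. Glia against neurons called 8 of the 14 higher and 3 lower, beside 30.9% and 37.8% of all genes. A gene that passed only through glia had to differ, so nothing is read from these counts. The carotenoid scavenger receptor gene santa-maria stood at 99.6 ± 16.7 CPM in glia against 0.263 ± 0.245 in neurons. The peptidoglycan receptor gene PGRP-LC stood at 39.5 ± 13.9 against 0.115 ± 0.177 CPM, the integrin alpha gene scb at 44.6 ± 23.3 against 0.317 ± 0.277, and the Nimrod gene NimB4 at 5.14 ± 3.17 against 0.0574 ± 0.0994. Like santa-maria, these 3 genes passed the filter only through the glia libraries, so their levels are given without a test. Itgbetanu (now Itgbn), an integrin beta subunit gene, went the other way, with no count in glia and 73 in neurons, at least 26.3-fold higher in neurons. This gene reached the filter only with the neuron libraries counted, so its levels too are given without a test. Of the other genes of this list, 13 did not reach the filter and 1 was not found in the table by name.

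Of 22 genes of Draper signalling and its transcriptional output, all tested, glia against neurons called 15 higher and 4 lower, with a median log2 difference of 0.92. Of all genes 68.7% were called, 30.9% higher and 37.8% lower, with a median of -0.17. The kinase gene shark, whose product binds the Draper tail, stood at 35.8 ± 1.5 CPM in glia against 1.52 ± 0.51 in neurons (log2 4.55 ± 0.55; edgeR adjusted p = 1.83e-05). The other kinase gene of Draper, Src42A, was lower in glia, at 64.2 ± 22.2 against 179 ± 14 CPM (log2 -1.48; edgeR adjusted p = 0.000165). Traf4, for an adaptor that binds Draper upstream of JNK signalling, stood at 7.98 ± 3.03 against 0.255 ± 0.110 CPM (edgeR adjusted p = 0.00498). The AP-1 subunit gene kay stood at 497 ± 49 against 63.7 ± 6.5, and the kinase gene Akt1 at 354 ± 27 against 65.6 ± 6.0 CPM (edgeR adjusted p = 3.76e-08 and 2.44e-08). The JNK gene bsk fell in glia, at 69.8 ± 10.5 against 385 ± 42 CPM (log2 -2.46 ± 0.13; edgeR adjusted p = 2.21e-08).

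Of 21 genes for phagosome maturation and the lysosome, 8 were called higher and 6 lower in glia than in neurons, and the median log2 difference was -0.04. The 14 called make up a share close to the 68.7% of all genes. The lysosomal transporter gene spin stood at 545 ± 36 CPM in glia against 47.0 ± 3.7 in neurons (log2 3.54 ± 0.15; edgeR adjusted p = 4.29e-09). The cathepsin D gene cathD rose from 187 ± 12 in neurons to 469 ± 48 in glia, and Lamp1, for a lysosomal membrane protein, from 285 ± 32 to 707 ± 133 CPM (edgeR adjusted p = 1.45e-06 and 1.46e-05). CG32350 (now Vps11), for a vesicle tethering subunit, was lower in glia, at 14.3 ± 2.2 against 70.8 ± 16.7 CPM (edgeR adjusted p = 4.36e-06), and Vps33B was higher, at 30.6 ± 11.9 against 13.0 ± 1.2 (edgeR adjusted p = 0.00138).

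**Figure D5:**
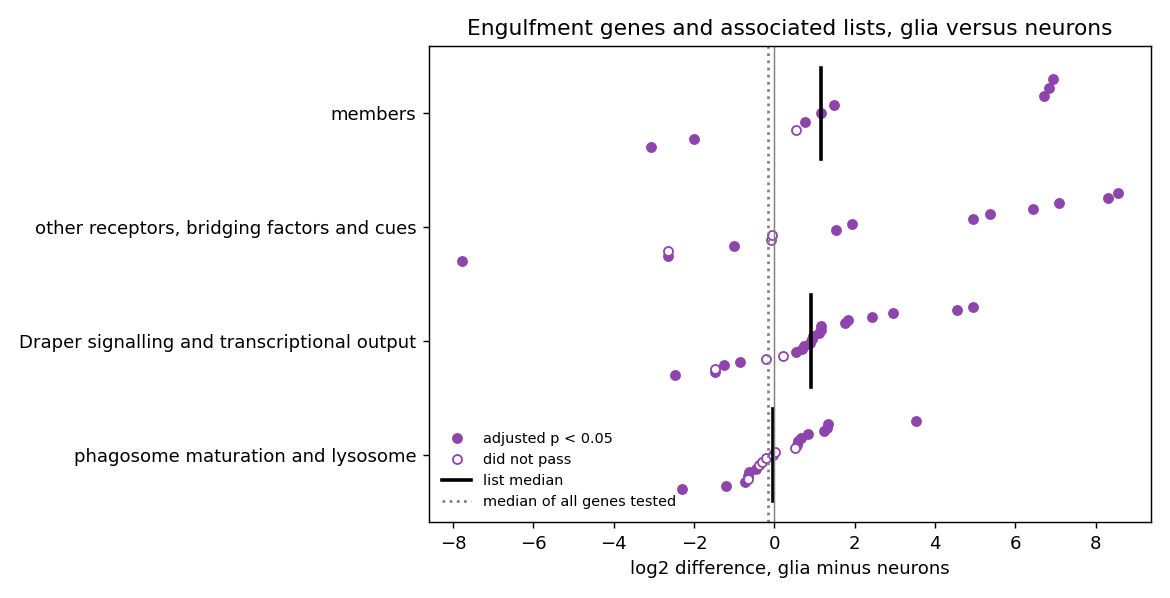
Log2 difference between glia and neurons of each tested gene in the engulfment set and the 3 wider lists, filled where the edgeR adjusted p was below 0.05, with a bar at the median of each list whose genes were all tested and a dotted line at the median of all genes tested (-0.17). The medians are 0.92 for Draper signalling and -0.04 for phagosome maturation.

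The same lists gave like counts in glia against T4 and against Pm2, comparisons that share the glia libraries. Receptors and cues were called 8 higher and 3 lower against T4 and 9 and 3 against Pm2. Genes that passed the filter only through glia are again among them, so nothing is read from these receptor counts. Draper signalling gave 15 and 4 against T4 and 15 and 3 against Pm2, and phagosome maturation 6 and 8 against T4 and 8 and 7 against Pm2. Of all genes 67.8% were called against T4 and 66.0% against Pm2. The gene scb, which passed the filter only through glia, had no count in T4 or Pm2, so glia were at least 2290-fold and 2397-fold higher.

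Between neuron populations fewer list genes were called, as were fewer of all genes. T4 against neurons called 2 receptor genes higher and 5 lower, 1 and 2 of Draper signalling, and 4 and 3 of phagosome maturation, beside 23.2% of all genes, 8.67% higher and 14.5% lower. These counts moved by more than 1.5 times with single libraries left out. The counts came down to 2 receptor genes without T4 replicate 1, T4 replicate 3 or neurons replicate 3, and to 3 phagosome genes without T4 replicate 2 or neurons replicate 3. The receptor count was 3 without neurons replicate 2 and 4 without T4 replicate 2 or neurons replicate 1, and the phagosome count was 4 without T4 replicate 1 or neurons replicate 2. The Draper signalling count rose from 3 to 5 without T4 replicate 2 and to 6 with only the 6 libraries compared. Of the receptor genes lower in T4, scb, NimC2 and santa-maria passed the filter only through glia. They had 42, 19 and 33 counts over the neuron libraries. The JNK phosphatase gene puc was lower in T4, at 8.43 ± 2.24 CPM against 72.4 ± 10.4 in neurons (log2 -3.10 ± 0.20; edgeR adjusted p = 3.86e-06) and 63.8 ± 9.3 in Pm2 (log2 -2.92 ± 0.20; edgeR adjusted p = 8.73e-07).

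Pm2 against neurons called 2 receptor genes higher and 4 lower, 1 and 4 of Draper signalling, and 3 and 5 of phagosome maturation, beside 35.6% of all genes, 15.5% higher and 20.1% lower. The Draper signalling count was 3 without Pm2 replicate 3, neurons replicate 2 or neurons replicate 3, and 8 with only the 6 libraries compared. Of the receptor genes lower in Pm2, scb and NimC2 passed the filter only through glia. The insulin receptor gene InR fell to 33.1 ± 5.9 CPM in Pm2 from 73.4 ± 10.5 in neurons (log2 -1.15 ± 0.18; edgeR adjusted p = 0.000432). Rab7, for the late endosome GTPase, was at 138 ± 26 against 273 ± 24 CPM (log2 -0.99 ± 0.13; edgeR adjusted p = 0.000168), and spin was higher in Pm2 at 92.0 ± 10.7 (log2 0.97 ± 0.14; edgeR adjusted p = 0.000250). T4 against Pm2 called 2 receptor genes higher and 1 lower, the latter being Crc (now Calr), the calreticulin gene, at 93.7 ± 8.6 CPM in T4 and 255 ± 31 in Pm2 (log2 -1.45 ± 0.12; edgeR adjusted p = 3.48e-06). It called 4 higher and 3 lower of Draper signalling, and 5 and 2 of phagosome maturation, beside 36.4% of all genes. The Draper signalling count fell from 7 to 4 without Pm2 replicate 3, and the phagosome count was 11 with only the 6 libraries compared.

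For each engulfment gene the tested gene with the most similar profile over the 12 libraries was found by the root mean square difference of centred log2 CPM. The closest to drpr was nst (0.148), at 66.8 CPM in glia against 25.5 in neurons, to crq Int6 (now eIF3e, 0.190), and to Rac1 Nrg (0.130). The closest to mbc was the trehalase gene Treh (0.312), at 7882 CPM in glia, 63.4 in neurons, 69.5 in T4 and 51.0 in Pm2. The closest to Crk was CG7971 (now Srrm234, 0.153), at 288 CPM in glia against 1107 in neurons, and to Ced-12 CG10565 (0.176). The genes with few counts in Pm2 had more distant nearest profiles: mfas lay 0.901 from ced-6 and CG10126 1.05 from Rac2. NimC4 was nearest to CR44031 (now asRNA:CR44031, 0.592), at 2.57 CPM in T4.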

How the data were processed

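Per the labels, sorted cells gave total RNA, SMART-Seq v4 cDNA and Nextera XT libraries, read as paired ends on an Illumina HiSeq. Per the submitters' processing notes, Trimmomatic 0.32, STAR 2.5.2 and HTSeq 0.6.1 were used with BDGP6. The kit does not mark strand. The values the authors deposited are whole-number counts per gene. The file name calls them normalized, and how is not given in the sources used here. Neuron columns could be assigned to their group only, so neuron replicate numbers are column numbers.

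Genes with at least 10 counts in 3 libraries were tested (10528). All 12 libraries were fitted together with trimmed mean of M values (TMM) scaling in edgeR 4.0.16 (R 4.3.3, quasi-likelihood F test, two-sided), with Benjamini-Hochberg adjustment over all genes tested and a threshold of 0.05. The test was checked on simulated data in which only a small part of the genes differed, and only in glia. Far more genes differed here, so that check does not cover the scaling or the error rate in these data. Coordinates and exon lengths come from Ensembl release 115 (BDGP6), where 11996 names matched a symbol, 4143 a synonym and 133 neither. Members and lists were chosen with earlier results of these data known. List genes named are, per list, up to 5 called with the largest log2 difference in glia against neurons and up to 3 in other comparisons, and a part of them is given. Cg25C, vkg, Eaat2, Pxn, PPO1, PPO2, PPO3, ush, Mdr65 and Src42A were named after their values were seen. Oseg4, ex, Patsas and nAChRalpha5 were named because they overlap an engulfment gene. Alternatives were other scalings, filters, DESeq2 1.42.0, limma 3.58.1, fewer libraries and a replicate block. Sequences are not printed, and promoter motifs were not analysed here. A further gene list is not reported here.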

Additional observations from a re-analysis of the deposited data

How the results depend on the processing

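Across the 6 comparisons, 54 gene results were recomputed under 729 alternatives. Of these, 673 kept direction and side of the threshold, 22 lost a call, 22 gained one and 12 changed sign, none of them with a call in the new direction, and 35 results kept both throughout. For 60 named list genes, 757 of 805 alternatives kept both and 48 lost the call. The changes of sign were in differences near 0. Ced-12 gave log2 -0.18 for glia against T4 under library-total scaling. For Pm2 against neurons it gave -0.0025 under median-of-ratios scaling, -0.094 under library totals, -0.00026 with a filter at 100 counts, -0.0024 in DESeq2, -0.0094 with only the 6 libraries, and -0.16 to 0.15 with single libraries left out. For T4 against Pm2 under library totals, Crk gave 0.075 and Rac1 0.11. With single libraries left out Crk gave -0.17 to 0.046. The cause was not tested. The number of engulfment genes called in T4 against neurons was 3, was 5 with only the 6 libraries, and was 1 to 3 with single libraries left out. NimC4 in glia lost its call with only the 6 libraries (adjusted p = 0.179, 0.0717 and 0.123 against neurons, T4 and Pm2) and against neurons under median-of-ratios scaling (0.0557). In limma, T4 against neurons lost ced-6 (0.108) and Rac2 (0.0576), and T4 against Pm2 lost ced-6 with only the 6 libraries (0.0551).

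Library-total scaling moved the median log2 difference of all genes in glia against neurons from -0.17 to -0.52. Relative to that median, drpr was 1.64 higher under both scalings and Rac1 0.94. Libraries with the same replicate number did not deviate together (correlations -0.026 to 0.025), so they were not treated as pairs. With only the 6 libraries compared and no block, 7, 7 and 4 engulfment genes were called in glia against T4, glia against Pm2 and T4 against Pm2, and 6267, 6325 and 4937 of all genes. With the replicate block added to these 6-library fits the counts were 7, 7 and 5, and 5106, 5211 and 4456 of all genes. NimC4 in glia was not called with the block either (0.0655 and 0.0895). No paired analysis of neurons was possible because their columns carry no number of a sample. With 3 libraries a population and counts of 0 to 23 for the rarest values, depth limits NimC4 in glia and ced-6 and Rac2 in Pm2.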
